A study of Mus musculus with 15 samples.

Results

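Transcripts of 6 genes that build or tune the B cell receptor, Cd79a, Cd79b, Cd22, Ms4a1, Blk and Pax5, were followed in sorted CD4+ and CD8+ T cells. The members were found by their symbols among 4567 genes, namely those that the authors listed in at least 1 of 4 deposited tables, each limited to an adjusted p under 0.05 and a log2 fold change beyond 2 in either direction. All 6 had counts in all 15 libraries, and genes under those limits in every table were not analysed here. Every member was therefore chosen by the contrasts of day 7 with control or of Flica-positive with Flica-negative cells, and levels in those contrasts are given as a description without a test.

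The study followed donor T cells in acute graft-versus-host disease (aGvHD), using Flica, a dye-coupled probe retained by cells with active caspase-1. There were 15 libraries, from 5 populations sorted from spleen with 3 biological replicates each. CD4 control and CD8 control cells came from untreated C57Bl6 mice on day 0 and were Flica-negative. CD4 Flica-negative, CD8 Flica-negative and CD8 Flica-positive cells came from C57Bl6 donors and were collected on day 7 after transfer into allogeneic Balb/C recipients. Those recipients had been lethally irradiated and also received bone marrow cells, and no Flica-positive CD4 libraries were part of the data used here. All donors were of the same strain and young adult age. According to the study's methods, splenocytes of several mice were pooled for a sort, with fewer control mice than mice with aGvHD, and untransplanted mice stood in for syngeneic recipients. Transfer, irradiation, time and host therefore cannot be told apart in any comparison of day 7 with day 0.

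B cells recognise antigen through membrane immunoglobulin, which signals only in a complex with the CD79A and CD79B chains. Src family kinases such as BLK and LYN phosphorylate the tails of these chains, the adaptor BLNK and the kinase BTK then relay the signal to PLCG2, and CD22 recruits a phosphatase that dampens it. PAX5 commits cells to the B lineage and switches on Cd79a together with EBF1, while Ms4a1 encodes CD20, a tetraspan protein of the mature B cell surface. The spleen is rich in B cells, and T cells are not known for making this set.

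Promoters of Cd79a, Cd22 and Pax5 were matched in the RefSeq table (GRCm38.p6), 3 of the 6 members, and the 250 bases before the start were searched on both strands for letters recognised by B lineage factors. Windows of 30 bases are shown for the matches that lie outside annotated exons. The match stands in capitals. In Cd79a, CAGGTG, an E-box of the kind E2A binds, began 154 bases before the RefSeq start at chr7:24897331-24897360 on the plus strand, upstream of the gene in GENCODE M21. In Cd22, the core that EBF1 recognises, TCCC and GGGA separated by any 2 bases, began 49 bases before the start at chr7:30879058-30879087 on the minus strand, in an intron of the GENCODE M21 gene. The 250 bases of Cd79a held no match to the EBF1 core. Cd79a also held GGAAGT, an ETS core, 54 bases before the start, and Cd22 held CAGGTG on the opposite strand 245 bases before the start.
Cd79a: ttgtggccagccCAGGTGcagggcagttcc
Cd22: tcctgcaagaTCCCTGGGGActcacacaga
CAGGTG was present in 17.2% of 32851 promoters of the same length and the EBF1 core in 0.779%. The Pax5 promoter held neither of these, nor the octamer ATGCAAAT (1.6% of promoters) or the ETS core GGAAGT (19.7%), which says only that these letters were not in that window. No other of the 4 motifs overlaps the match in either window shown.

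Counts on the listed genes summed to between 2143579 and 11046043 per library, with the CD8 Flica-positive libraries highest, and size factors lay between 0.836 and 1.25. The normalized count used below is a count divided by that factor. The sorted lineages matched their labels: Cd8a, the CD8 alpha chain, lay between 9348 and 21642 in the 9 CD8 libraries and at 117 or below in the 6 CD4 libraries. Of 19 T cell markers, 2 had values, Cd8a and Tcf7, so Cd4 and the CD3 chains were not analysed here. In bulk RNA, fewer cells of a type and less RNA per cell cannot be told apart.

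In the control cells all 6 genes were well counted, and in all 9 day 7 libraries each lay below all 6 day 0 libraries. Of the 4567 listed genes, 16.1% were ordered in that way, and the choice of members fixed this order in part. The loss was uneven: Ms4a1 and Blk went to 0 counts in the CD4 Flica-negative cells, whereas Cd22 kept 42.1% of its control mean there. CD8 Flica-positive cells held more Cd79a than CD8 Flica-negative cells, but no more than 24.2% of the control mean of any member.

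**Figure D1:**
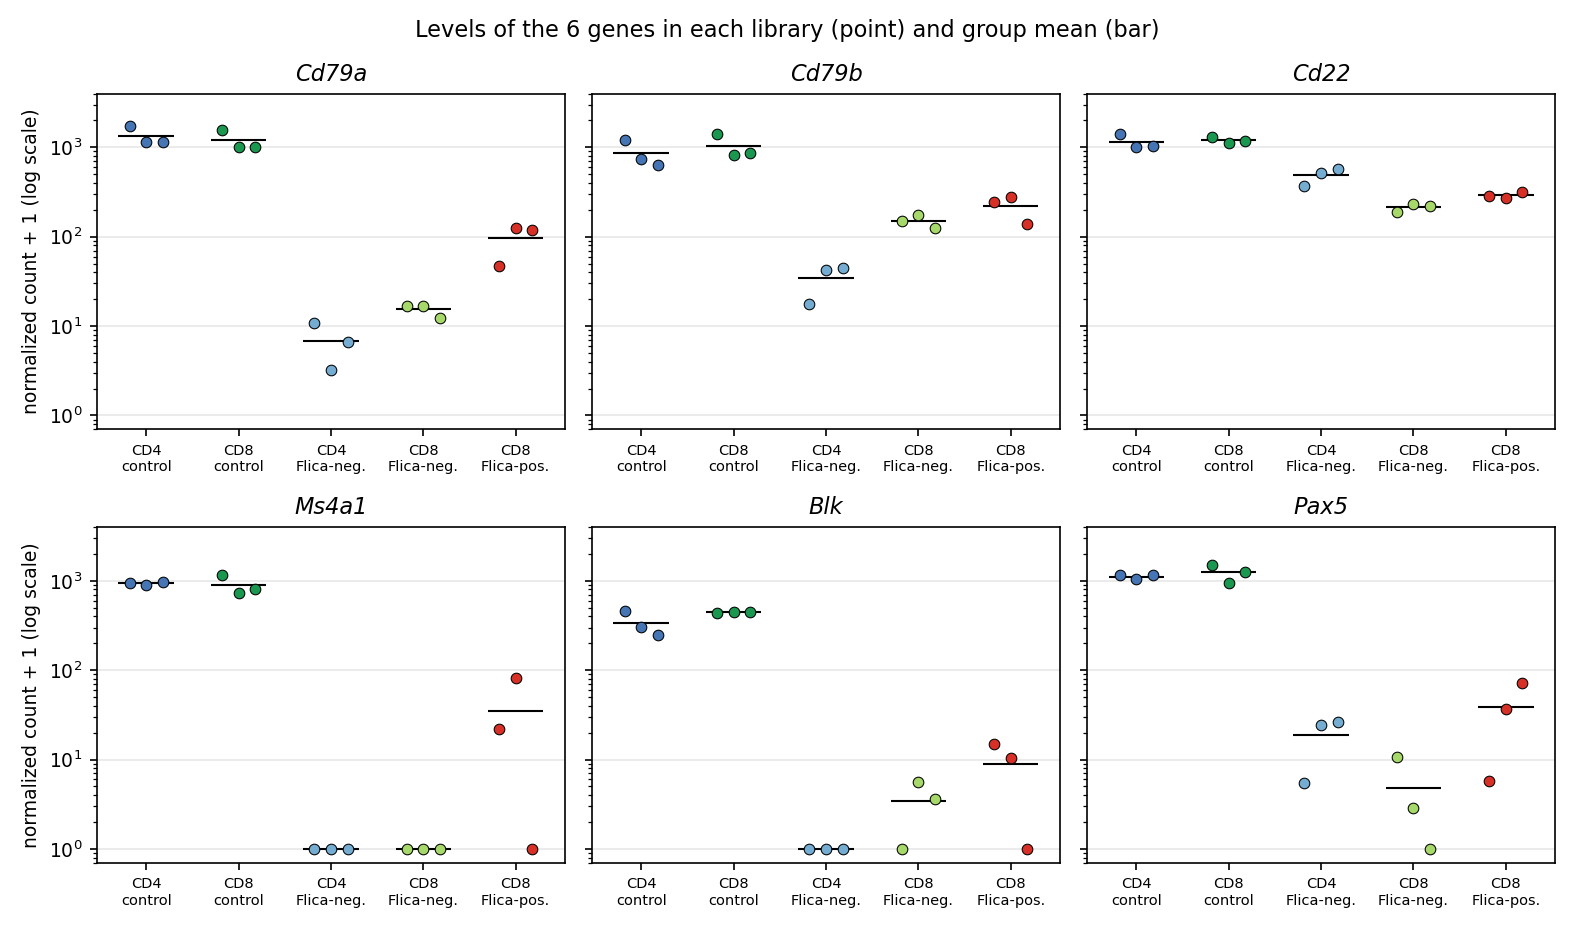
Normalized count plus 1 (log axis) of each of the 6 genes in every library (points, 3 per population) with the group mean (bar); the populations are CD4 and CD8 control (day 0) and CD4 Flica-negative, CD8 Flica-negative and CD8 Flica-positive (day 7). All day 7 points lie below the control points, Ms4a1 is at 0 in all 6 Flica-negative libraries, and Cd22 is the member with the smallest distance between day 0 and day 7.

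The signalling chains of the receptor come first. Cd79a (ENSMUSG00000003379, chr7:24897381-24902197 in GRCm38, plus strand) encodes the alpha chain. Its normalized counts in replicates 1 to 3 were 1746, 1157 and 1148 in CD4 control cells and 1566, 1007 and 1013 in CD8 control cells. They were 9.70, 2.23 and 5.61 in CD4 Flica-negative cells and 16.0, 15.9 and 11.2 in CD8 Flica-negative cells. Flica-positive CD8 cells had 45.7, 125 and 117, above every Flica-negative library and below every control library. Among all genes tested, 31.9% had every Flica-positive library above every Flica-negative CD8 library. In means, Cd79a was at 1350.4 ± 343 (SD, n = 3) and 1195 ± 321 in CD4 and CD8 control cells, 5.85 ± 3.74 and 14.4 ± 2.72 in CD4 and CD8 Flica-negative cells, and 95.9 ± 43.6 in CD8 Flica-positive cells. That left 0.43% of the control mean in CD4 Flica-negative cells, 1.20% in CD8 Flica-negative cells and 8.02% in CD8 Flica-positive cells.

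Cd79b (ENSMUSG00000040592, chr11:106311341-106314762, minus strand), the beta chain, was lost to a lesser degree. Control cells had 1219, 741 and 638 (CD4) and 1395, 829 and 867 (CD8). CD4 Flica-negative libraries held 16.8, 41.3 and 43.2, and CD8 Flica-negative libraries 150.2, 173 and 125. CD8 Flica-positive libraries held 242, 278 and 136, so that the lowest of them fell within the Flica-negative range. The means of the control groups were 866 ± 310.4 and 1030.4 ± 316 (SD, n = 3), and those of day 7 were 33.8 ± 14.8, 149 ± 23.8 and 219 ± 73.5 in the order CD4 Flica-negative, CD8 Flica-negative and CD8 Flica-positive. Cd79b thus kept 3.90%, 14.5% and 21.2% of its control mean, and in each population a larger share than its partner Cd79a.

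Cd22 (ENSMUSG00000030577, chr7:30865402-30880342, minus strand) encodes an inhibitory receptor that binds sialic acid. It stood at 1415, 1008 and 1043 in CD4 control cells and 1301, 1109.5 and 1173 in CD8 control cells. On day 7 the CD4 Flica-negative libraries had 372, 515 and 571 and the CD8 Flica-negative libraries 188, 233 and 220.1. The Flica-positive libraries had 285, 272 and 312, all below the CD4 Flica-negative ones. Cd22 was the only member that was higher in CD4 Flica-negative than in CD8 Flica-positive cells in every library. Its means were 1155 ± 225 and 1195 ± 97.6 (SD, n = 3) in control cells and 486 ± 103, 214 ± 23.6 and 289.6 ± 20.5 on day 7, which is 42.1%, 17.9% and 24.2% of control. GENCODE M21 places an antisense gene, Gm29439, within Cd22, and strandedness of the counting is not given in the sources used here, so reads of the pair cannot be told apart.

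Ms4a1 (ENSMUSG00000024673, chr19:11249675-11266241, minus strand), which encodes CD20, had 955, 887 and 957 in CD4 control cells and 1163, 724 and 808 in CD8 control cells. Not a single read was counted in any of the 6 Flica-negative libraries of day 7. Taking 3 counts per library as the floor that a count of 0 allows, Ms4a1 was at least 333-fold lower in CD4 and at least 314-fold lower in CD8 Flica-negative cells than in their controls, where floors cover counting error only. In CD8 Flica-positive cells it had 21.1, 80.0 and 0, from 18, 68 and 0 counts. The mean of 33.7 ± 41.5 (SD, n = 3) is therefore carried by replicate 2: Flica-positive cells were at least 11.8-fold above the Flica-negative floor with it and at least 3.69-fold without it. An antisense gene, 4930526L06Rik, spans Ms4a1 on the other strand.

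Blk (ENSMUSG00000014453, chr14:63372836-63417037, minus strand), the B lymphoid Src family kinase, had values of 453, 305 and 247 in CD4 control cells and 436, 450.4 and 441 in CD8 control cells. CD4 Flica-negative libraries had 0 in all 3 replicates, at least 120-fold below control on the same floor. CD8 Flica-negative libraries had 0, 4.67 and 2.59, from 0, 5 and 3 counts, and CD8 Flica-positive libraries 14.1, 9.42 and 0, from 12, 8 and 0 counts. These last groups overlapped, and the counts are too few to separate them.

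Pax5 (ENSMUSG00000014030, chr4:44524757-44710487, minus strand), the lineage factor, had 1157, 1037 and 1151 in CD4 control cells and 1511, 946 and 1269 in CD8 control cells. CD4 Flica-negative libraries held 4.41, 23.4 and 25.6, and CD8 Flica-negative libraries 9.59, 1.87 and 0. CD8 Flica-positive libraries held 4.69, 35.3 and 71.8, and the lowest of these was under the highest Flica-negative value. Pax5 means were 1115 ± 67.8 and 1242 ± 284 (SD, n = 3) in control cells and 17.8 ± 11.7, 3.82 ± 5.08 and 37.3 ± 33.6 on day 7, or 1.6%, 0.31% and 3.00% of control. Replicate 3 of the Flica-positive cells, which had no Ms4a1 or Blk counts, was the one with the most Pax5. Antisense genes, among them Gm12462, also overlap Pax5.

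Levels of different genes were compared per kilobase of annotated exon. In CD4 control cells the order was Cd79a (927 ± 235 normalized counts per kb, SD, n = 3), Cd79b (605 ± 217), Cd22 (229 ± 44.7), Ms4a1 (151 ± 6.45), Pax5 (126 ± 7.65) and Blk (124 ± 39.4). Cd79a was above Cd79b within every library, with 42.1% to 43.4% of the per-kb sum of the 6 genes against 24.5% to 30.6%, although the ranges of their levels overlapped between libraries. Blk overlapped Ms4a1 and Pax5, while Ms4a1 was above Pax5 in every library. In CD8 control cells the per-kb order was Cd79a (820.3 ± 220.1), Cd79b (720.1 ± 221), Cd22 (237 ± 19.4), Blk (164 ± 2.69), Ms4a1 (145 ± 37.7) and Pax5 (140.3 ± 32.04). Cd79a was again above Cd79b within every library, with 35.3% to 38.0% of the per-kb sum against 30.7% to 34.5%, and the last 3 overlapped.

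On day 7 the order changed with the lineage. In CD4 Flica-negative cells Cd22 led with 96.4 ± 20.3 normalized counts per kb (SD, n = 3), ahead of Cd79b with 23.6 ± 10.3, while Cd79a (4.01 ± 2.57) and Pax5 (2.01 ± 1.32) did not differ beyond their spread. In CD8 Flica-negative cells Cd79b led with 104 ± 16.6 per kb, ahead of Cd22 (42.4 ± 4.67) and Cd79a (9.85 ± 1.86), and Blk (0.90 ± 0.87) and Pax5 (0.43 ± 0.57) overlapped. CD8 Flica-positive cells had Cd79b first (153 ± 51.4), with Cd79a (65.8 ± 29.9) and Cd22 (57.4 ± 4.07) overlapping behind it, and Ms4a1, Pax5 and Blk between 2.90 and 5.45 per kb with overlapping spreads.

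Expressed as percent of the 6 genes' per-kb sum, Cd79a made up 35.3 to 43.4% of every control library and Cd22 9.13 to 11.8%. In CD4 Flica-negative libraries Cd22 made up 75.4 to 79.6% and Cd79a 1.13 to 7.18%. Cd79b made up 62.6 to 68.1% of the CD8 Flica-negative libraries. The CD8 Flica-positive libraries differed among themselves, with Cd79a at 11.8 to 32.7% and Cd79b at 38.8 to 63.5%. In the shares of Cd79a, Cd79b and Cd22, all day 7 libraries thus lay outside the control range. The make-up differed between CD4 and CD8 Flica-negative libraries, whereas the Cd79b ranges of CD8 Flica-negative and CD8 Flica-positive libraries overlapped. The source of these shares was not tested.

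**Figure D2:**
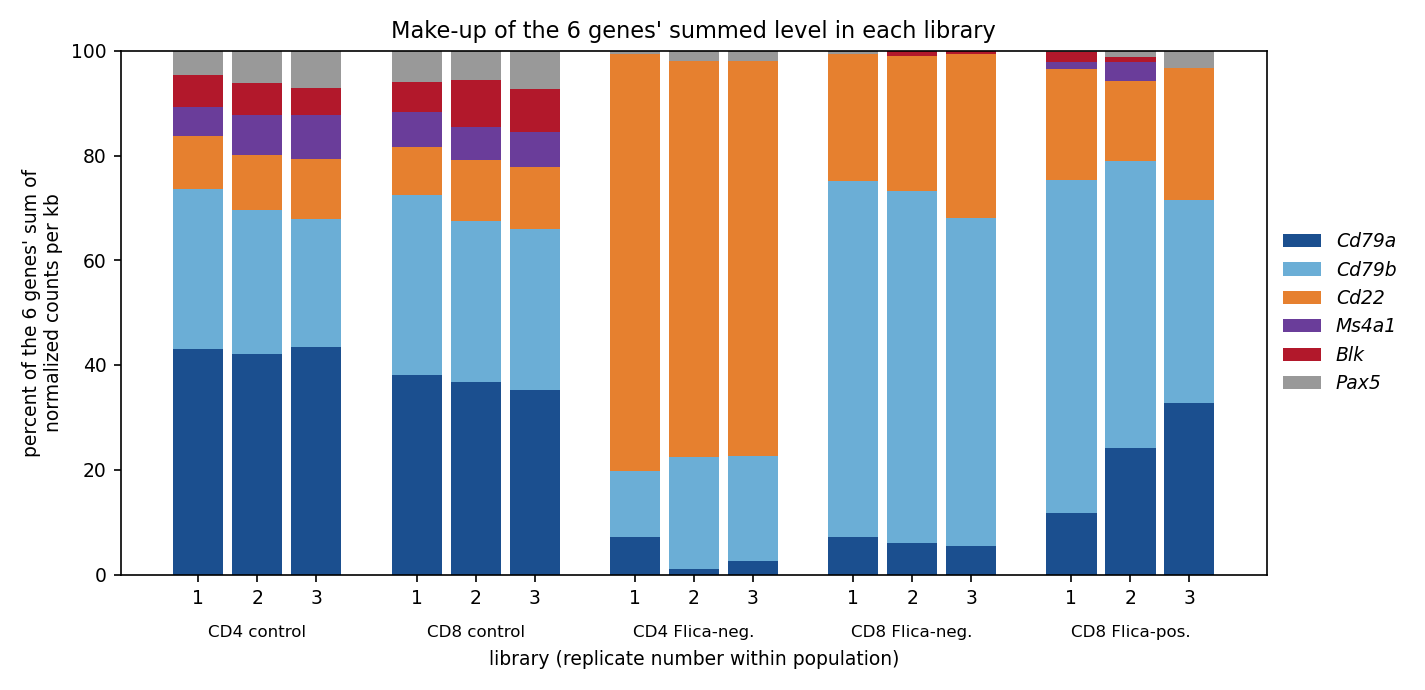
Percent of the 6 genes' summed normalized count per kilobase that each gene contributed, 1 stacked bar per library, with 3 libraries per population. Control libraries share 1 make-up led by Cd79a, CD4 Flica-negative libraries are mostly Cd22 (75.4 to 79.6%), and CD8 Flica-negative libraries are mostly Cd79b (62.6 to 68.1%).

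Whether the lineages differed in these genes was asked in the pair of contrasts that did not choose the members, although their libraries also served in contrasts that did. On day 0, no difference between CD4 and CD8 control cells was called for any member: 0 of 6 passed the quasi-likelihood test of edgeR (Benjamini-Hochberg adjusted p below 0.05), where 13.0% of 3952 listed genes tested did. None had an unadjusted p below 0.05 either, and DESeq2 also called 0. The log2 fold changes, CD4 against CD8, were 0.18 for Cd79a (95% interval -0.27 to 0.62), -0.25 for Cd79b (-0.77 to 0.27) and -0.05 for Cd22 (-0.42 to 0.32). For Ms4a1 it was 0.05 (-0.35 to 0.46), for Pax5 -0.16 (-0.54 to 0.23), and for Blk, with the largest difference, -0.40 (-0.89 to 0.08, edgeR adjusted p = 0.33). Libraries with the highest Cd79a and Cd79b were replicate 1 in both control groups.

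On day 7 the same contrast gave opposite answers for Cd22 and Cd79b. Of the 4 members with at least 10 counts, 2 passed, against 22.7% of 4241 genes tested. Cd22 was higher in CD4 than in CD8 Flica-negative cells by 1.18 on the log2 scale (SE 0.25, 95% interval 0.64 to 1.73, edgeR adjusted p = 0.0039), with all 3 CD4 libraries above all 3 CD8 libraries. However, Cd22 was listed only through CD8 contrasts with control, where it fell beyond the threshold, and not through the CD4 contrast. That choice favours CD4 above CD8 here, so the Cd22 values are a description and its p-value is no independent test. Cd79b was lower in CD4 than in CD8 cells, with a log2 fold change of -2.14 (SE 0.42, interval -3.04 to -1.25, edgeR adjusted p = 0.0021), and again the libraries did not overlap. Groups that did not overlap were found for 18.8% of genes with CD4 higher and 21.0% with CD4 lower.

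Cd79a was also lower in all 3 CD4 libraries, but at a total of 65 counts its log2 fold change of -1.27 (SE 1.06, interval -3.53 to 0.99) did not pass (edgeR adjusted p = 0.43). Pax5 had 69 counts, overlapping groups and a log2 fold change of 2.22 (SE 1.31, interval -0.58 to 5.02, edgeR adjusted p = 0.24). Ms4a1, with 0 counts, and Blk, with 8, were under the minimum of 10 and were not tested. With any 1 library left out, both calls held: Cd22 lay between 1.05 and 1.34 (edgeR adjusted p at most 0.0265) and Cd79b between -2.37 and -1.82 (at most 0.0157). Leaving out libraries does not remove the choice of Cd22 by its CD8 levels.

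**Figure D3:**
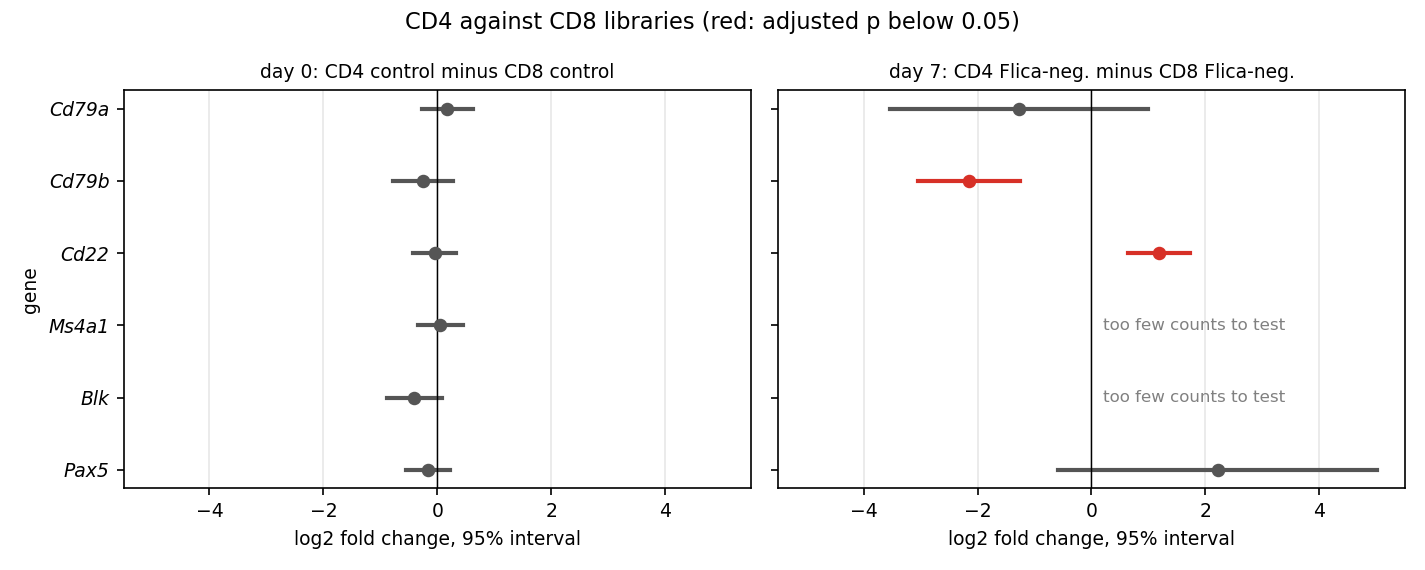
Log2 fold change of CD4 against CD8 libraries with its 95% interval for each of the 6 genes (points and lines), for control cells on day 0 and Flica-negative cells on day 7; values above 0 are higher in CD4, and red marks an edgeR adjusted p below 0.05. Day 0 intervals all cross 0, and on day 7 Cd22 lies above 0 (1.18) and Cd79b below it (-2.14). Cd22 was listed through its CD8 levels only, which favours values above 0 on day 7.

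The contrasts that chose the members are described by fold change alone. In CD8 Flica-negative against CD8 control cells, log2 fold changes (edgeR) were -6.38 (SE 0.34) for Cd79a, -2.79 (0.29) for Cd79b, -2.48 (0.22) for Cd22, -7.40 (0.59) for Blk and -8.41 (0.68) for Pax5. In CD4 Flica-negative against CD4 control cells they were -7.78 (SE 0.40) for Cd79a, -4.68 (0.40) for Cd79b, -5.96 (0.45) for Pax5 and -1.25 (0.23) for Cd22. Cd22 in CD4 cells was thus the member outside the threshold of 2, and 5 of 6 members were listed in that table. Just inside it were Cd22 (-2.04, SE 0.23) and Cd79b (-2.24, SE 0.37) in CD8 Flica-positive against CD8 control cells. In that contrast Cd79a was at -3.64 (SE 0.44), Ms4a1 at -4.73 (1.04), Pax5 at -5.06 (0.75) and Blk at -5.79 (0.88). The share of all genes tested that were called lower was 29.9% for CD8 Flica-negative, 27.9% for CD4 Flica-negative and 24.2% for CD8 Flica-positive cells, each against control.

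Flica-positive against Flica-negative CD8 cells was the contrast with the fewest members listed, 3 of 6 (Cd79a, Ms4a1 and Pax5). Of 4286 genes, 21.7% were called higher and 2.80% lower (929 against 120), a split that became 721 against 447 when libraries were scaled by TMM, which moved the median of all genes by -0.57 on the log2 scale. Means were 6.68 times higher for Cd79a, 9.76 times for Pax5 and 3.24 times for Blk. The log2 fold changes were 2.73 (SE 0.69), 3.27 (1.5) and 1.63 (1.86). With TMM scaling that of Cd79a was 2.10. With 1 library left out, Pax5 lay between 2.38 (without CD8 Flica-positive replicate 3) and 5.16 (without CD8 Flica-negative replicate 1), and Blk between 0.91 (without CD8 Flica-positive replicate 1) and 2.45 (without CD8 Flica-negative replicate 2). For Cd79b the log2 fold change was 0.55 (SE 0.38) and for Cd22 0.44 (0.30), and with TMM scaling both turned to -0.02 and -0.14, so no direction is given for this pair.

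Genes of the receptor and its pathway were read from 6 lists of 78 B cell genes, of which 47 had values. In CD4 Flica-negative cells 27 of them were under 10% of their control mean, in CD8 Flica-negative cells 24 and in CD8 Flica-positive cells 11. Their median level was 5.48%, 7.06% and 29.8% of control, against medians of 80.0%, 89.7% and 284% over all listed genes with a control value, of which 13.9%, 15.7% and 19.8% were under 10%. Above the control mean were 5, 8 and 15 of the 47. Since each of the 47 was listed for a change in 1 of these contrasts, these counts describe the lists and test nothing.

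Among receptor chains and co-receptors, 8 of 9 had values. Ighd, the IgD constant gene, kept 3.82%, 1.74% and 4.75% of control in CD4 Flica-negative, CD8 Flica-negative and CD8 Flica-positive cells. Igkc, the kappa light chain constant gene, went the other way in Flica-positive cells: 5965 ± 2135 (SD, n = 3) against 1574 ± 415 in CD8 control and 575 ± 161 in CD8 Flica-negative cells. Cd81, a tetraspanin that T cells also express, was 169 ± 67.3 in CD4 and 58.2 ± 21.6 in CD8 Flica-negative cells (log2 1.54, SE 0.42, edgeR adjusted p = 0.016). Igkc was lower in CD4 in the same test (log2 -2.35, SE 0.40, edgeR adjusted p = 0.00077), and the other 4 of 6 tested were not called. Cd81 passed the log2 limit of 2 only in Flica-positive against Flica-negative CD8 cells (2.18), a choice that favours a low CD8 Flica-negative level. Against control, Igkc passed it in CD4 (-3.84) but not in CD8 Flica-negative cells (-1.45). Neither p-value is an independent test.

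Of 8 inhibitory receptors 7 had values. Cd72 kept 36.2%, 30.8% and 24.2% of control in CD4 Flica-negative, CD8 Flica-negative and CD8 Flica-positive cells. Siglecg, a relative of Cd22, kept 1.25%, 1.24% and 22.0%. Pirb and Fcgr2b, inhibitory receptors that myeloid cells also express, were at 2932 ± 1045 and 645 ± 235 (SD, n = 3) in CD8 Flica-positive cells and at 69.3 ± 11.6 and 134 ± 71.6 in CD8 control cells. In that contrast 47.2% of all genes tested were called higher (2144 higher and 1100 lower, against 1236 and 1613 with TMM scaling). In the test of CD4 against CD8 Flica-negative cells 1 of 6 passed, Pirb, which was lower in CD4 (log2 -1.98, SE 0.50, edgeR adjusted p = 0.011). Pirb passed the log2 limit of 2 only in contrasts of CD8 Flica-positive cells, so its p-value is no independent test.

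Of 20 signalling proteins downstream of the receptor 7 had values, and these divided. Bank1, an adaptor, had 1.16%, 2.50% and 14.98% of control left. Lyn, Plcg2 and Pik3ap1 were 2032 ± 689.7, 1868 ± 498 and 2411 ± 272 in CD8 Flica-positive cells, against 341 ± 101, 410.2 ± 111 and 339 ± 51.8 in CD8 control cells. Pik3ap1, an adaptor of PI3K, was already at 2467 ± 45.3 in CD8 Flica-negative cells. CD4 against CD8 Flica-negative cells gave 4 of 7 called, all lower in CD4: Lyn (log2 -1.58, SE 0.29), Btk (-3.26, SE 0.96), Plcg2 (-1.13, SE 0.24) and Pik3ap1 (-1.20, SE 0.16), with edgeR adjusted p between 8.2e-05 and 0.024, where 12.6% of all genes tested were called lower. Of 14 neutrophil markers 11 were also called lower in CD4 in this contrast, as was 1 of 10 macrophage markers, Lyz2 (log2 -1.81, SE 0.40), and their part in the 4 calls was not tested. Lyn, Plcg2 and Pik3ap1 changed by -1.73, -1.14 and 1.62 on the log2 scale in CD4 Flica-negative against CD4 control cells. They passed the limit of 2 in CD8 contrasts only, so their p-values are no independent test.

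Of 14 transcription factors 10 had values. Irf4, which also acts in activated T cells, was at 2790.3 ± 276 in CD4 Flica-negative, 3370.5 ± 151 in CD8 Flica-negative and 2264 ± 186 in CD8 Flica-positive cells, from 718 ± 19.8 and 551 ± 52.5 in controls. Irf8 likewise was 872 ± 121, 2041 ± 121 and 3199 ± 343 on day 7. Foxo1 and Bach2, which resting T cells express as well, kept 29.4% and 12.5% of control in CD4 and 37.5% and 4.09% in CD8 Flica-negative cells. Bach2 was higher in CD4 than in CD8 Flica-negative cells (log2 2.20, SE 0.28, edgeR adjusted p = 7.5e-05), whereas Spi1 (-1.69, SE 0.43, edgeR adjusted p = 0.011) and Irf8 (-1.23, SE 0.17, edgeR adjusted p = 0.00017) were lower, so that 1 of 9 tested was called higher in CD4 and 2 lower. Spi1 and Irf8 passed the log2 limit of 2 only in contrasts of CD8 Flica-positive cells, so their p-values are no independent test.

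Of 19 other surface genes 12 had values. Fcmr, the Fc receptor for IgM, resembled Ms4a1: means of 806 ± 121 and 799 ± 175 (SD, n = 3) in CD4 and CD8 control cells, 0 in all 6 Flica-negative libraries and 9.01 ± 7.82 in Flica-positive cells. Fcer2a, the low-affinity IgE receptor, was at 0 in all CD4 Flica-negative and all Flica-positive libraries, and at 0, 1.87 and 0 in CD8 Flica-negative libraries. Cd74, the invariant chain, was 6769 ± 308 in Flica-positive and 7008 ± 1185 in CD8 control cells, and Cd24a 3045 ± 469 and 502 ± 132. Cxcr5 was called higher in CD4 on day 7, 455 ± 184 in CD4 and 107 ± 4.41 in CD8 Flica-negative cells (log2 2.09, SE 0.32, edgeR adjusted p = 0.00036). Against control, however, it changed by -0.42 on the log2 scale in CD4 and by -2.79 in CD8 Flica-negative cells. Cxcr5 thus passed the limit of 2 through CD8 cells only, which favours CD4 above CD8, and its p-value is no independent test. Cd83 was also called higher in CD4 (log2 3.85, SE 0.77), whereas Cd24a (-1.55, SE 0.31), Ly86 (-3.94, SE 1.34) and Cd74 (-0.83, SE 0.23) were called lower, which makes 2 higher and 3 lower of 9 tested. Of 8 precursor genes 3 had values. Il7r, which T cells also need, was at 115% of control in CD4 Flica-negative cells but lower in CD8 cells. Its log2 fold changes against CD8 control were -1.35 (SE 0.17) in Flica-negative and -2.55 (SE 0.20) in Flica-positive cells. Dntt was at 0.87% of control in CD4 Flica-negative cells and Vpreb3 at 9.36%.

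Over the 47 list genes, CD4 against CD8 Flica-negative cells gave 5 called higher and 11 lower among 39 tested, where 10.1% of all genes tested were called higher and 12.6% lower. Their median log2 fold change was -0.83, against -0.12 for all genes tested. Of those called, Cd81, Cxcr5 and Il7r (higher) and Pirb, Lyn, Plcg2, Pik3ap1, Spi1 and Irf8 (lower) passed the log2 limit of 2 only in CD8 contrasts. Igkc and Cd24a (lower) passed it against control in CD4 but not in CD8 Flica-negative cells. The choice of listed genes thus bears on these counts and this median, which describe the lists and test nothing. On day 0 the counts were 2 higher (Cd81 and Bach2) and 0 lower among 47, where 7.11% and 5.85% of all genes tested were called, with a median of 0.08 against 0.07.

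**Figure D4:**
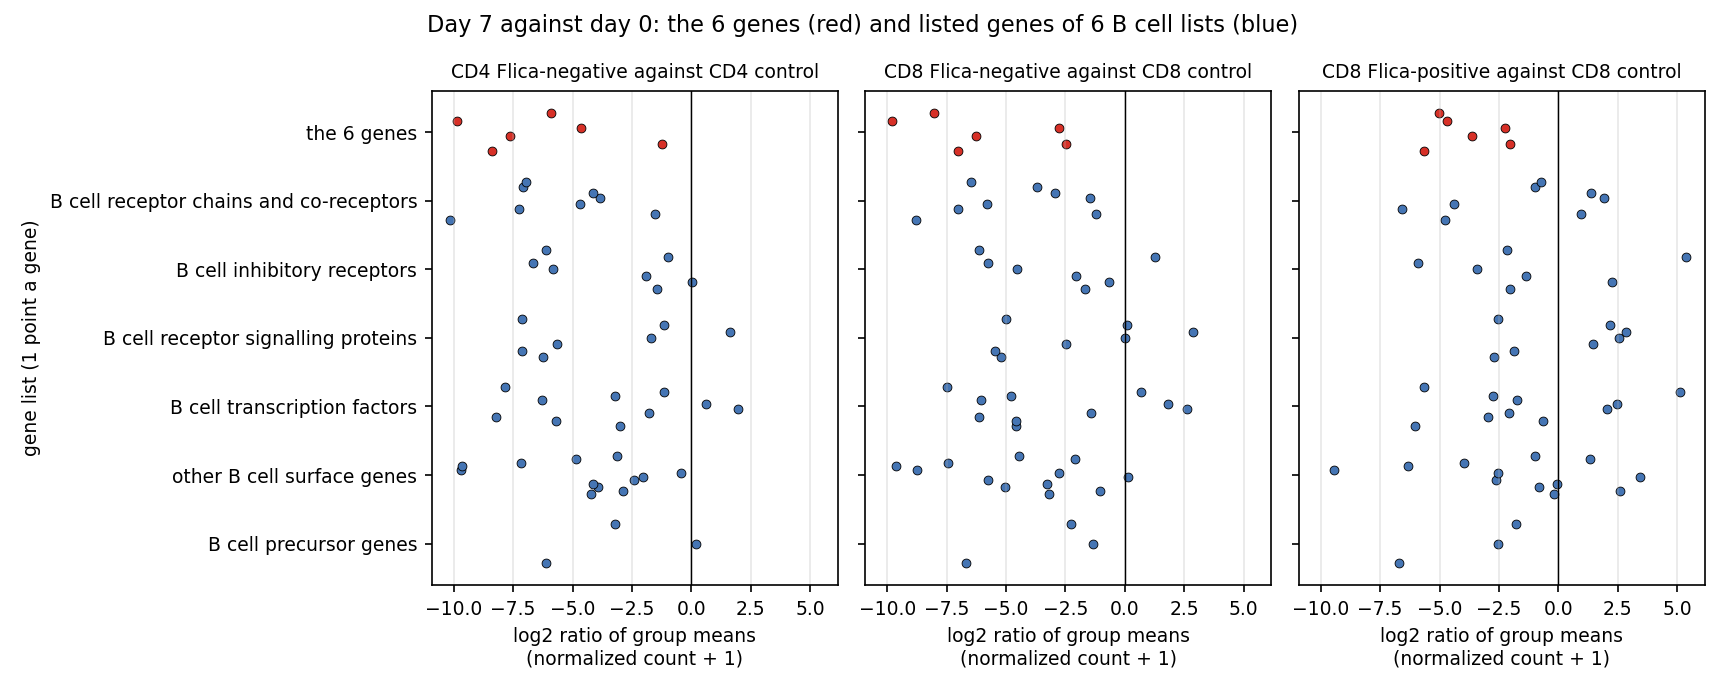
Log2 ratio of group means (normalized count plus 1), day 7 against day 0, for the 6 genes (red) and the genes with values in 6 B cell lists (blue, 1 point a gene), in CD4 Flica-negative, CD8 Flica-negative and CD8 Flica-positive cells. Most points lie left of 0 in the Flica-negative panels, 27 and 24 of the 47 list genes under 10% of control, and in the Flica-positive panel 15 of the 47 exceed control.

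Markers of other cell types moved with the Flica-positive libraries, and their part in the levels above was not tested. Summed over 14 of 14 neutrophil markers, libraries held 60.9 to 144 normalized counts in control cells, 2670.4 to 7795 in CD4 Flica-negative, 11864 to 18188 in CD8 Flica-negative and 200517 to 387729 in CD8 Flica-positive cells. For 10 of 14 macrophage markers the sums were 71.2 to 212 in controls, 269.8 to 728 and 886 to 2065 in CD4 and CD8 Flica-negative cells, and 17759 to 37282 in Flica-positive cells. Erythroid markers, 8 of 12, set 1 library apart, reaching 112922 in replicate 1 of the Flica-positive cells against 7991 and 2049.7 in the others. Replicate 1 was also the Flica-positive library with the least Cd79a and Pax5, but it had the most Blk. The least Cd79b, Ms4a1 and Blk were in replicate 3, and the least Cd22 in replicate 2. Ebf1, on the list of B cell transcription factors, was at 0 in all CD4 Flica-negative libraries. In CD8 cells Ebf1 had 7.46, 0.933 and 0.863 in Flica-negative and 29.3, 25.9 and 52.6 in Flica-positive libraries. Of the 47 B cell list genes, 7, Ebf1 among them, were at 0 in all 3 CD4 Flica-negative libraries, and the others were not. Dendritic cell markers, 5 of 11, summed to 5131 to 6641 in Flica-positive and 6957 to 9875 in CD8 Flica-negative cells. Single markers went both ways: 2 of the 5 were called higher in Flica-positive cells and 1 lower. Among all genes tested in that contrast, 21.7% were called higher and 2.80% lower. The sum therefore gives no direction for these markers as a set.

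Plasma cell genes, the secreting end of the B lineage, had a higher summed level on day 7 than on day 0. Summed over 7 of 13 they lay between 120.0 and 137 in CD8 control and 225 and 295 in CD4 control cells. On day 7 they reached 1131 to 1423 in CD4 Flica-negative, 2489.8 to 2679.8 in CD8 Flica-negative and 9175 to 14350.1 in CD8 Flica-positive cells. Prdm1, which effector T cells express too, made up most of this in Flica-negative cells (1144 ± 66.9 and 1979 ± 98.9, SD, n = 3). In CD4 Flica-negative against CD4 control cells it was the 1 of 7 called higher, while Jchain, the joining chain of secreted antibodies, had a mean of 6.83 against 34.3 and Ighg3 of 6.29 against 22.0. In Flica-positive cells immunoglobulin constant genes did, with Ighg2c at 5213 ± 1578, Ighg1 at 1937 ± 1289 and Ighg2b at 1052 ± 357, where CD8 control cells had 7.41 ± 6.82, 4.31 ± 2.98 and 4.42 ± 4.90. The Flica-positive libraries therefore held more Igkc, Ighg1, Ighg2b and Ighg2c RNA than CD8 control cells, but less RNA of the constant gene Ighd (log2 -4.40, SE 0.45). They also held less Cd79a, Cd79b, Cd22, Ms4a1, Blk and Pax5 RNA.

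**Figure D5:**
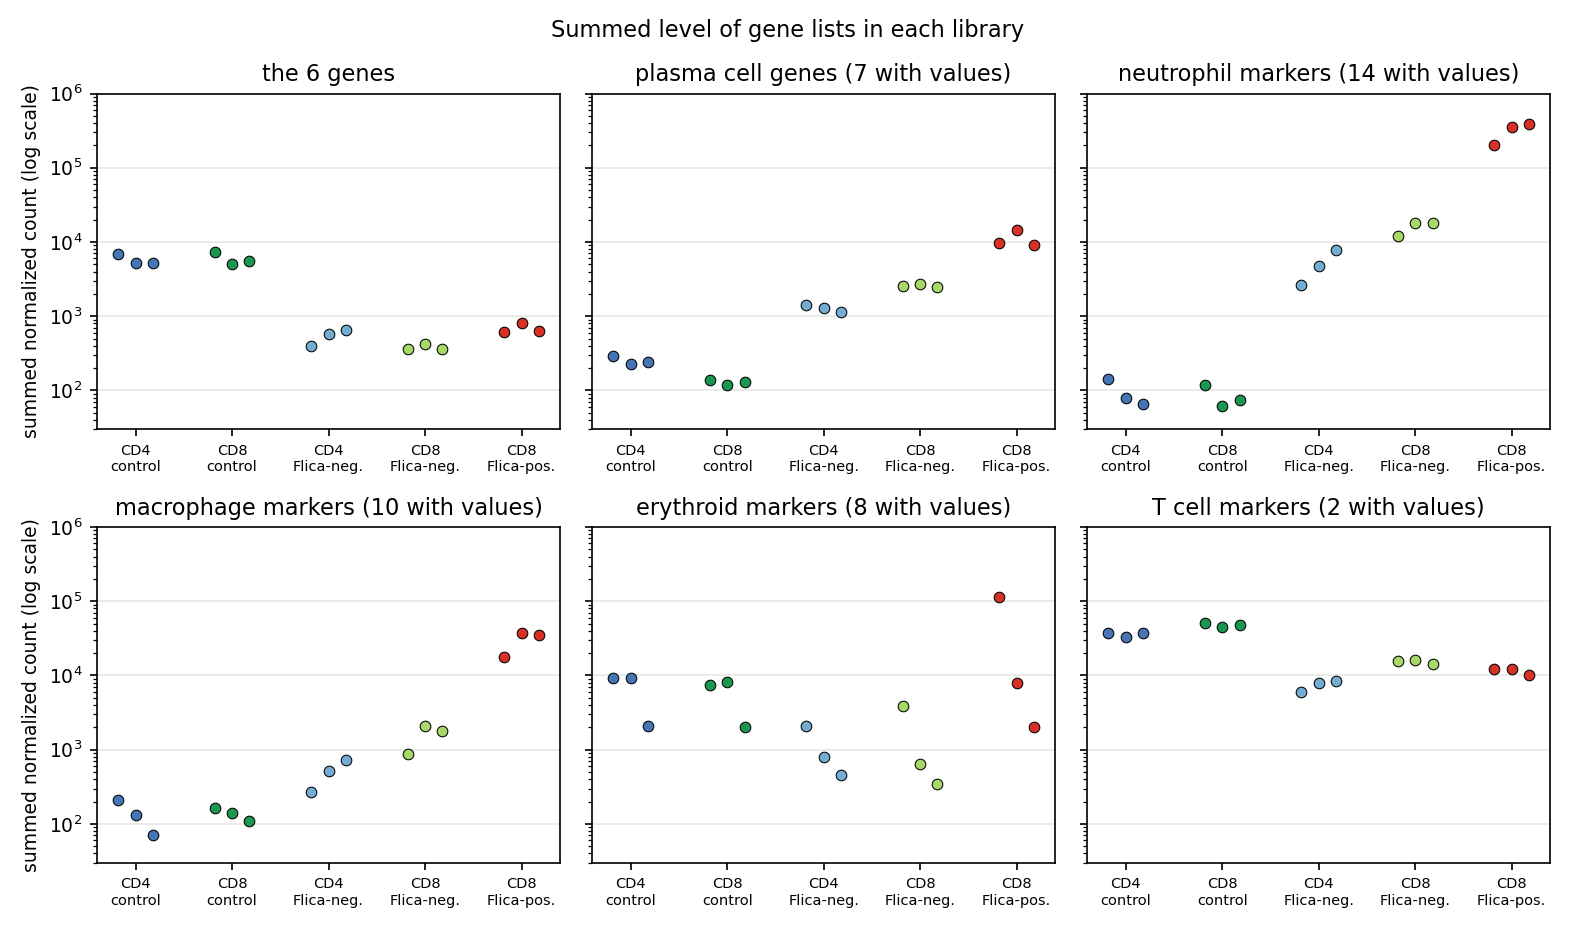
Summed normalized count (log axis) of the 6 genes, plasma cell genes and markers of neutrophils, macrophages, erythroid cells and T cells in each library (points, 3 per population). The 6 genes are lowest on day 7, neutrophil markers are highest in the Flica-positive cells (200517 to 387729), and Flica-positive replicate 1 stands out for erythroid markers (112922).

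Profiles over the 15 libraries were compared by the root mean square difference of log2(normalized count + 1) after centring each gene, given as a description. Nearest to Cd79a were Ebf1 (0.76), Cacna1e (0.99) and Bank1 (1.10), where the median listed gene was at 3.94. Nearest to Ms4a1 were Fcmr (0.60), Ly6d (1.24) and Spib (1.40), and nearest to Blk were Fcmr (1.08), Gprc5b (1.17) and H2-Eb2 (1.18), with medians of 5.29 and 4.56. Pax5 came nearest to Sh3pxd2a (1.20), H2-Ob (1.27) and Spib (1.33), with a median of 4.42.

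Cd79b and Cd22 kept other company. The genes nearest to Cd79b were Gga2 (0.81), Nedd4l (0.83) and Actn1 (0.83), with a median of 2.68, and those nearest to Cd22 were Akap8l (0.25), Slc49a4 (0.28) and Cyp4f13 (0.31), with a median of 2.16. None of these is on the B cell lists, whereas Ebf1, Bank1, Fcmr, Ly6d and Spib are. Between members, Ms4a1 and Blk were closest (1.32) and Cd22 and Ms4a1 farthest apart (3.79).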

How the data were processed

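RNA of 15 libraries (5 sorted populations, 3 biological replicates each) was sequenced paired-end from oligo-dT libraries. The submitters' processing notes name STAR 2.7.1a, GRCm38 and DESeq2; the counting tool and annotation are not given in the sources used here. The authors deposited raw counts per gene, as whole numbers, in 4 tables of genes selected by fold change and adjusted p. The mean signal deposited beside them is the average of counts divided by size factors, which were recovered from it with a largest relative error of 5.9e-15. The authors' fold changes, p-values and enrichment tables were not used.

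Normalized counts are counts divided by these factors. Genes with at least 10 counts over the 6 libraries compared were tested with edgeR 4.0.16 (quasi-likelihood test, limma 3.58.1, R 4.3.3), with Benjamini-Hochberg adjustment over the listed genes tested, themselves a selection. The script was tested on simulated data. Alternatives were TMM scaling, DESeq2 1.42.0, other count filters, a replicate block and leaving out each library. A floor of 3 counts per library served for groups at 0. Depth of whole libraries is unknown, since the tables hold part of each. Replicates were not duplicates (chi-square per degree of freedom at least 12.2). Replicate numbers were not taken to pair libraries, since the labels state no pairs. Correlations of same-numbered libraries' deviations lay between 0.027 and 0.128 within a day and between -0.069 and 0.0039 across days. Same-numbered libraries of a day may share a pool, which the main tests do not take into account.

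The members and lists were chosen with earlier results of these data known. Named genes were the 6 members, the 4 genes of each list with the highest mean and the 3 nearest profiles per member among genes with a mean of at least 10. Btk, Fcer2a, Ebf1, Tcf7 and Hba-a1 were named after their values were seen. 1 list gene that the rule names is not reported here. Positions came from GENCODE M21. Python 3.11.15, pandas 2.3.3, numpy 2.4.6 and matplotlib 3.10.9 made tables and plots.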

Additional observations from a re-analysis of the deposited data

How the results depend on the processing

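Day 7 levels of the 6 genes lay below day 0 in every setting tried, and the day 7 calls for Cd22 and Cd79b (CD4 against CD8 Flica-negative) held in all of them. No setting removes the choice of Cd22 by its CD8 levels. Counts of genes called were within 1.5 times of the reported ones except for 3. CD4 against CD8 Flica-negative cells gave 964 called genes, and 609 to 939 with 1 library left out, lowest without CD4 Flica-negative replicate 2. CD8 Flica-positive against Flica-negative cells gave 1049, and 685 to 1010 with 1 library left out, lowest without CD8 Flica-negative replicate 2. Replicate numbers were not taken to pair the libraries, since the labels state no pairs, but same-numbered libraries of a day may share a pool. Their correlations were all positive within a day, only some above 0.1. Hba-a1 in replicates 1 to 3 was 2478, 2583 and 702 in CD4 control and 2055, 2186 and 570 in CD8 control cells. In CD4 and CD8 Flica-negative cells it was 585, 198 and 111, and 1042, 139 and 105. Whether pools were shared was not tested, and the main tests leave it out. A replicate block raised called genes from 512 to 645 in CD4 against CD8 control, from 964 to 1272 in CD4 against CD8 Flica-negative and from 1049 to 1150 in CD8 Flica-positive against Flica-negative cells. It lowered them against control, from 3244 to 2107 for CD8 Flica-positive cells. For CD8 Flica-negative cells, 1726 higher and 1328 lower calls became 2414 in all. For CD4 Flica-negative cells, 1439 higher and 1217 lower calls became 2197 in all. The block called the same members. The cause was not tested.

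With TMM scaling the median over all genes shifted on the log2 scale by -1.61 in CD8 Flica-positive against control, by -0.57 against Flica-negative, by -0.38 and -0.23 in CD8 and CD4 Flica-negative against control. It turned called genes from 2144 higher and 1100 lower into 1236 and 1613 in CD8 Flica-positive against control. It reversed Cd79b (-0.024) and Cd22 (-0.14) between Flica-positive and Flica-negative cells. On day 0, where nothing was called, leaving out 1 library crossed 0 for Cd79a (-0.053 to 0.42), Cd79b (-0.58 to 0.029), Cd22 (-0.22 to 0.040), Ms4a1 (-0.079 to 0.28) and Pax5 (-0.32 to 0.0096). Of the other single-gene values, 17 untested ones moved by more than 1 SD between replicates, and 346 moved by less or kept their call. Library depth is unknown, and Ms4a1 and Blk at 0 to 5 counts could not be compared between Flica-negative populations.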
